A study of Mus musculus with 4 samples.

Results

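The genes described here encode 10 receptor chains through which T cells read cytokines: Il2ra, Il2rb, Il2rg, Il4ra, Il7r, Il21r, Il12rb1, Il12rb2, Il18r1 and Crlf2. They were chosen by name, as the chains that bind IL-2, IL-4, IL-7, IL-12, IL-18, IL-21 and TSLP, and were found through their Ensembl IDs in GENCODE M21. All 10 were among the 38282 genes listed, and 9 of them were among the 11423 genes tested. RNA came from naïve CD4+ T cells of C57BL/6 mouse spleen that were cultured under the Th0 condition, either alone (Th0) or with dopamine added (Th0+Dopa), until day 4. By common usage, Th0 cultures are activated with no cytokine that steers the cells to a T helper lineage. Each group had 2 libraries, Th0 2 and Th0 3 against Th0+Dopa 2 and Th0+Dopa 3. The sources used here give neither the age of the mice, nor the dose of dopamine, nor the number of mice behind each culture. The comparison addresses how the transcripts of activated CD4+ T cells differ when dopamine is in the culture.

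A cytokine receptor is assembled from chains that are often shared. Il2rg encodes the common gamma chain, which serves the receptors for IL-2, IL-4, IL-7 and IL-21. The gene Il7r encodes the chain that pairs with the common gamma chain to bind IL-7 and with the Crlf2 protein to bind TSLP. Il12rb1 encodes a chain used for both IL-12 and IL-23, and Il12rb2 the chain that makes the receptor specific for IL-12. Most of these chains signal through Janus kinases and STAT factors, whereas the IL-18 receptor signals through the adaptor MyD88. Because partners are needed in the same cell, the levels of the chains help to set which cytokines a T cell can answer.

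Levels are in FPKM, that is, fragments scaled to transcript length and to a measure of library size, so levels of different genes can be set side by side. The authors made 1 table for the libraries numbered 2 and another for those numbered 3, and differences were therefore taken within a table, Th0+Dopa minus Th0, on log2(FPKM + 1). The estimate is the mean over both pairs with its standard error (SE) after ±, from limma with the table as a block, and a gene with an adjusted p under 0.05 over all tested genes was called. A value set across the tables, such as a group mean, also carries any difference between the tables. The labels do not say whether each library had its own culture or animal. The p-values therefore rest on these libraries alone, and the spread between them may be technical. Nor is an SE the spread of a gene's own pairs, which gave 1 residual degree of freedom. To this, a variance that limma shares across genes of like level added 4.70. From the spacing of the low values, 1 fragment on a transcript of 1 kb was worth 0.149 to 0.199 FPKM. By this estimate Il2rb rested on 1508 to 2725 fragments per library, Il12rb1 on 213 to 648, Il7r on 107 to 279, Crlf2 on 72.8 to 170 and Il18r1 on 1.76 to 9.37.

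The TSLP receptor genes Il7r and Crlf2 were both called higher, but Crlf2 was not called after a correction for GC content and transcript length. The stretches of DNA before the starts of these genes and of Il12rb2, which did not pass the test, are unlike in base composition. They are RefSeq promoter windows on GRCm38.p6, read on the gene's strand, 5′ to 3′, up to the base before the start: Il7r at chr15:9529877-9530040, minus strand (the exon-free part of its window, which lies in an intron of a longer GENCODE transcript), Crlf2 at chr5:109558994-109559243, minus strand, and Il12rb2 at chr6:67376189-67376438, minus strand. Capitals mark matches to TTCNNNGAA, the palindromic pattern that STAT factors can bind.
Il7r: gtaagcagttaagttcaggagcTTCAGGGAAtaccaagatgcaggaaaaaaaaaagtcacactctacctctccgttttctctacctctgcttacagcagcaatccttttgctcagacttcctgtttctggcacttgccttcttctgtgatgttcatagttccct
Crlf2: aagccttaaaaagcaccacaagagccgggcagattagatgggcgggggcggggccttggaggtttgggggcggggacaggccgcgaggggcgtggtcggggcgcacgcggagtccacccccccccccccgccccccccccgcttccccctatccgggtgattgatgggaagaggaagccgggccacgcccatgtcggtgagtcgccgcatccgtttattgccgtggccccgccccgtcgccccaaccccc
Il12rb2: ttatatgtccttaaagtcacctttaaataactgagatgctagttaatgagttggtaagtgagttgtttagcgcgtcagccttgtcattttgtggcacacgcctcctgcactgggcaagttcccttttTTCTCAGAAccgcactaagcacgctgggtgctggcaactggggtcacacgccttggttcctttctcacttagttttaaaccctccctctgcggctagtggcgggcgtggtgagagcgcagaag
The stretch before Crlf2 was 71.6% G or C, against 43.9% for the intronic stretch of Il7r. The full 250-base window of Il7r, which also holds exon bases, was at 44.0%. The median over 32851 promoter windows was 52.4%. The windows of 8 of the 10 members were matched by symbol, and those of Il12rb1 and Il2rb were not. These 8 genes had 10 windows, of which 3 belong to Il18r1. TTCNNNGAA was found in the 250 bases before the start in 3 of the 10 windows, 1 each of Il7r, Il12rb2 and Il18r1, and in 7.02% of all windows. Other patterns were searched on both strands. TGTTTAC, the FOXO pattern, was found before Il21r, and in 3.17% of all windows. The cyclic AMP response element TGACGTCA was found in 0 of the 10 windows and in 1.55% of all windows. For the AP-1 pattern, TGACTCA, these figures were 0 and 4.46%. A GATA pattern spelled AGATAA was likewise found in 0 of the 10, with 9.99% of all windows holding it. A match says only that these letters are present in the window.

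Under both conditions the chains of the IL-2 receptor were the most abundant of the 10 by mean level. Il2rg had a mean of 163 FPKM over the 4 libraries, Il2rb 116, Il2ra 92.4, Il4ra 88.4, Il12rb1 51.84, Il21r 51.79, Crlf2 17.8, Il7r 14.0, Il12rb2 6.52 and Il18r1 0.407. Among neighbours in this order, the ranges over the libraries were separate between Il21r and Crlf2, between Il7r and Il12rb2 and between Il12rb2 and Il18r1, and they overlapped for all other neighbours. Il2rg was nevertheless above Il2rb, and Il2rb above Il2ra, in each of the 4 libraries. Il2ra was above Il4ra in 3 of the 4, and their means with dopamine were nearly equal (100.8 and 100.7). In Th0+Dopa 2, Il4ra (112) was above both Il2rb (109) and Il2ra (85.6).

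**Figure D1:**
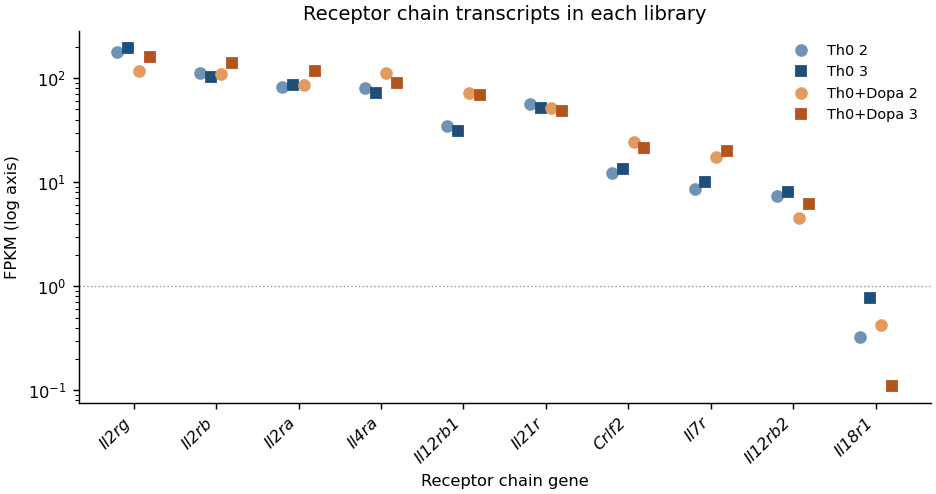
FPKM (log axis) of the 10 receptor chain genes, ordered by mean level, with 1 point per library; circles are the libraries numbered 2, squares those numbered 3, and the dotted line marks 1 FPKM. Il7r, Crlf2, Il12rb1 and Il4ra are higher in both Th0+Dopa libraries than in both Th0 libraries, and Il18r1 alone lies below 1 FPKM.

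Of the 9 chains tested, 3 rose with dopamine (Il12rb1, Il7r and Crlf2) and 0 fell. Among all tested genes 6.28% rose and 4.39% fell, so 10.7% were called in either direction. The median difference was 0.24 over the 9 chains and 0.03 over all tested genes. Scaling changes this picture: with every library set to a common sum of FPKM, 1 chain rose and 1 fell, and the medians were -0.0078 over the chains and -0.20 over all tested genes. With small RNA genes left out before that scaling, 3 chains rose and 1 fell, and the medians were 0.04 and -0.16. Without any test, both Th0+Dopa libraries lay above both Th0 libraries for 4 of the 9 chains, against 31.4% of all tested genes, and below them for 3 of the 9, against 25.6%. The groups were thus separate for 7 of the 9 chains, against 57.0% of all tested genes, so separation alone is common in these data.

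**Figure D2:**
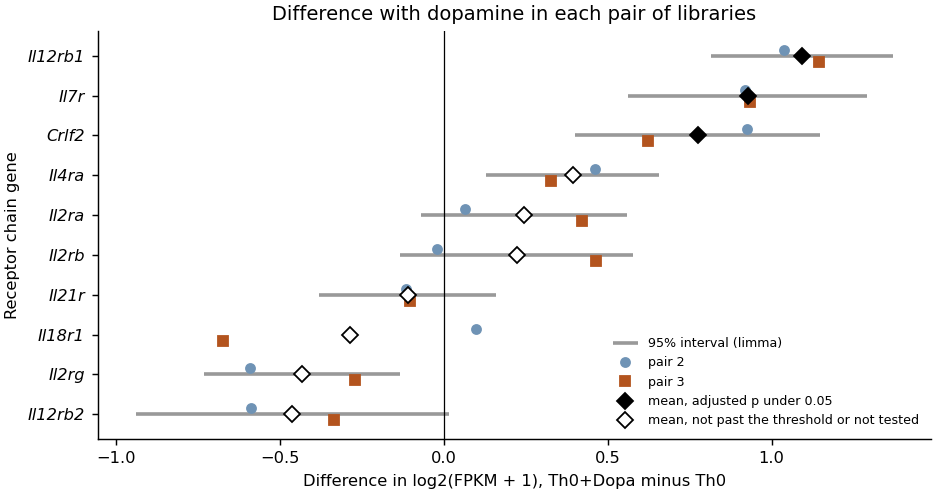
Difference in log2(FPKM + 1), Th0+Dopa minus Th0, for each receptor chain; small circles and squares are pairs 2 and 3, diamonds their mean (filled where the limma adjusted p was under 0.05) and bars the 95% interval. The mean differences of the called genes Il12rb1, Il7r and Crlf2 were 1.09, 0.93 and 0.77, and the pairs of Il18r1 and of Il2rb lay on both sides of 0.

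Both chains of the TSLP receptor rose in the reported fit, though the call of Crlf2 depended on the settings. Il7r (ENSMUSG00000003882, chromosome 15, 9505788 to 9530176, GRCm38), known in T cells as a marker of naive and memory cells that is lowered on activation, stood at 8.69 FPKM in Th0 2 and 9.94 in Th0 3, and at 17.3 in Th0+Dopa 2 and 19.9 in Th0+Dopa 3. The ratios were 1.99-fold in pair 2 and 2.00-fold in pair 3, and the groups did not overlap. The log2 difference was 0.93 ± 0.15 (95% interval 0.56 to 1.29, limma adjusted p = 0.0191). Crlf2 (ENSMUSG00000033467, chromosome 5, 109554709 to 109558993), the chain that makes the receptor specific for TSLP, stood at 12.3 FPKM in Th0 2 and 13.4 in Th0 3, and at 24.2 in Th0+Dopa 2 and 21.2 in Th0+Dopa 3. Both dopamine libraries were thus above both controls, by 1.97-fold in pair 2 and 1.58-fold in pair 3. Its log2 difference was 0.77 ± 0.15 (95% interval 0.40 to 1.15, limma adjusted p = 0.0339). Transcripts of Crlf2 are rich in G and C (65.2%, against 40.8% for Il7r), and with each pair's differences corrected for GC content and transcript length the difference was 0.13 for Crlf2 (adjusted p = 0.602) and 1.13 for Il7r (adjusted p = 0.0179). Crlf2 also missed the threshold without the block (adjusted p = 0.0504), with lower filters (0.0644 and 0.0542) and when FPKM were scaled to a common sum, where the difference was 0.53 for Crlf2 (adjusted p = 0.0929) and 0.69 for Il7r (0.0584).

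Of the IL-12 receptor chains, Il12rb1 rose and Il12rb2 did not pass the test. Il12rb1 (ENSMUSG00000000791, chromosome 8, 70808449 to 70821424) had 34.7 FPKM in Th0 2 and 30.8 in Th0 3, and 72.4 and 69.4 with dopamine. Both dopamine libraries lay above both controls, at 2.08-fold and 2.25-fold in pairs 2 and 3. The log2 difference was 1.09 ± 0.11 (95% interval 0.81 to 1.37, limma adjusted p = 0.00555). In this fit it was the largest difference among the 9 chains. After the GC and length correction it was 0.90 (adjusted p = 0.0156), below that of Il7r, and without Th0 3 the pair had 0.988 and 0.996. Il12rb2 (ENSMUSG00000018341, chromosome 6, 67291318 to 67376188), the chain that recruits STAT4 signalling, stood at 7.335 FPKM in Th0 2 and 8.03 in Th0 3, and at 4.54 and 6.16 in the libraries with dopamine. Its groups did not overlap, with a log2 difference of -0.46 ± 0.19 that did not pass the test (95% interval -0.94 to 0.02, limma adjusted p = 0.191). As a ratio of FPKM within a library, which does not depend on how the library is scaled, Il12rb1 to Il12rb2 was 4.74 in Th0 2 and 3.84 in Th0 3, against 15.9 in Th0+Dopa 2 and 11.3 in Th0+Dopa 3. This ratio was not tested, and it was not corrected for GC content, which was 56.8% for transcripts of Il12rb1 and 47.1% for Il12rb2. After the GC and length correction the difference of Il12rb2 was -0.35, beside 0.90 for Il12rb1. Il23r, whose product pairs with the Il12rb1 chain to bind IL-23, was listed at 0 in all 4 libraries. Without limma's trend of variance with level, the 3 calls were lost (adjusted p = 0.0617 for Il12rb1, 0.0738 for Il7r and 0.11 for Crlf2). With each library left out in turn, 0 of the 9 chains passed. In these fits the differences of Il12rb1 were 0.99 to 1.19 (adjusted p = 0.143 to 0.264), those of Il7r 0.85 to 1.01 (0.157 to 0.322) and those of Crlf2 0.67 to 0.88 (0.148 to 0.362).

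For the common gamma chain the values were lower with dopamine, but the difference did not pass. Il2rg (ENSMUSG00000031304, chromosome X, 101264378 to 101268255) had 178 and 194 FPKM in Th0 2 and Th0 3 and 118 and 161 in the Th0+Dopa libraries. The groups did not overlap, and the log2 difference was -0.43 ± 0.12 (95% interval -0.73 to -0.13, limma adjusted p = 0.0810). Il2rg was called lower when a common sum of FPKM was set for every library (-0.68, adjusted p = 0.0288) and with small RNA genes left out before that scaling (-0.63, adjusted p = 0.0137), settings that moved the median of all tested genes from 0.03 to -0.20 and -0.16. Every partner chain compared with it was higher relative to Il2rg with dopamine in both pairs. All these ratios share Il2rg, which was itself lower, at 0.662 and 0.828 of Th0 in pairs 2 and 3. A ratio can thus rise where its chain does not, as for Il21r, at 0.922 and 0.929 of Th0. The ratio of Il7r to Il2rg went from 0.0489 and 0.0512 to 0.147 and 0.124, and that of Il4ra to Il2rg from 0.455 and 0.367 to 0.949 and 0.558. For Il2ra to Il2rg it was 0.460 and 0.444 in Th0 against 0.728 and 0.721 in Th0+Dopa, and for Il2rb to Il2rg 0.623 and 0.525 against 0.930 and 0.878. For Il21r to Il2rg the ratios were 0.315 and 0.266 against 0.439 and 0.298, the last of which lay below the Th0 2 value. These ratios were neither tested nor corrected for GC content and transcript length.

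**Figure D3:**
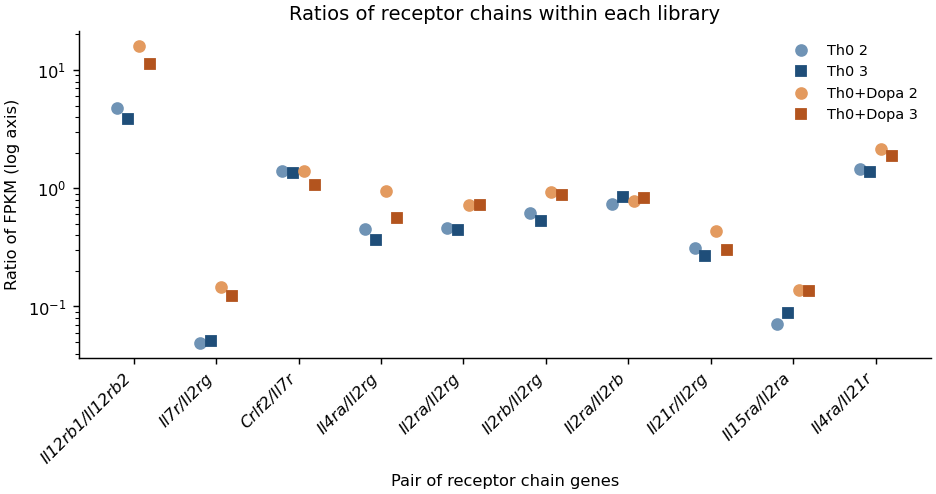
Ratio of the FPKM of 2 receptor chain genes within each library (log axis), 1 point per library, circles for the libraries numbered 2 and squares for those numbered 3. Il12rb1 to Il12rb2 goes from 4.74 and 3.84 in Th0 to 15.9 and 11.3 with dopamine, while Il2ra to Il2rb stays between 0.738 and 0.846.

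The alpha and beta chains of the IL-2 receptor were not called. Il2ra (ENSMUSG00000026770, chromosome 2, 11642807 to 11693193), the alpha chain CD25 that gives high affinity for IL-2 and is induced by activation, had 81.8 and 86.2 FPKM in Th0 and 85.6 and 116 with dopamine. The groups overlapped, and only Th0+Dopa 3 stood above the rest. The log2 difference was 0.24 ± 0.13 (95% interval -0.07 to 0.56, limma adjusted p = 0.269). Il2rb (ENSMUSG00000068227, chromosome 15, 78479256 to 78495271), the beta chain shared with the IL-15 receptor, had 111 and 102 FPKM in Th0 and 109 and 141 with dopamine. Here too Th0+Dopa 3 was the highest library, and pair 2 differed by -0.02. Its log2 difference was 0.22 ± 0.14 (95% interval -0.13 to 0.58, adjusted p = 0.366). The intervals of Il2ra and Il2rb allow rises of up to 1.47-fold and 1.49-fold on this scale and falls to 0.953 and 0.913 of the Th0 value. With a common sum, which moved the median of all tested genes to -0.20, both differences had the opposite sign (-0.0078 and -0.0298). The ratio of Il2ra to Il2rb was 0.738 and 0.846 in Th0 and 0.783 and 0.821 with dopamine. Neither pair moved it by more than 1.06-fold.

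Il4ra (ENSMUSG00000030748, chromosome 7, 125552120 to 125579474), the chain that binds IL-4 and recruits STAT6, had 80.8 and 71.4 FPKM in Th0 and 112 and 89.8 with dopamine. Both dopamine libraries were above both controls, at 1.38-fold and 1.26-fold. The log2 difference, 0.39 ± 0.11 (95% interval 0.13 to 0.66), did not pass the test (limma adjusted p = 0.0753). Il21r (ENSMUSG00000030745, chromosome 7, 125603429 to 125633570), which lies beside Il4ra on the chromosome, had 56.0 and 51.62 FPKM in Th0 and 51.60 and 48.0 with dopamine. Its groups count as separate, though the higher Th0+Dopa value (51.60) was barely below the lower Th0 value (51.62). The log2 difference was -0.11 ± 0.11 (95% interval -0.38 to 0.16, limma adjusted p = 0.561). The ratio of Il4ra to its neighbour Il21r was 1.44 and 1.38 in Th0 and 2.16 and 1.87 with dopamine. Il18r1 (ENSMUSG00000026070, chromosome 1, 40465552 to 40500854), the binding chain of the IL-18 receptor, was too low to test. Its FPKM was 0.326 and 0.769 in Th0 and 0.421 and 0.111 with dopamine, higher in pair 2 and lower in pair 3, and at 1.76 to 9.37 estimated fragments per library a difference was not detectable at this depth.

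**Figure D4:**
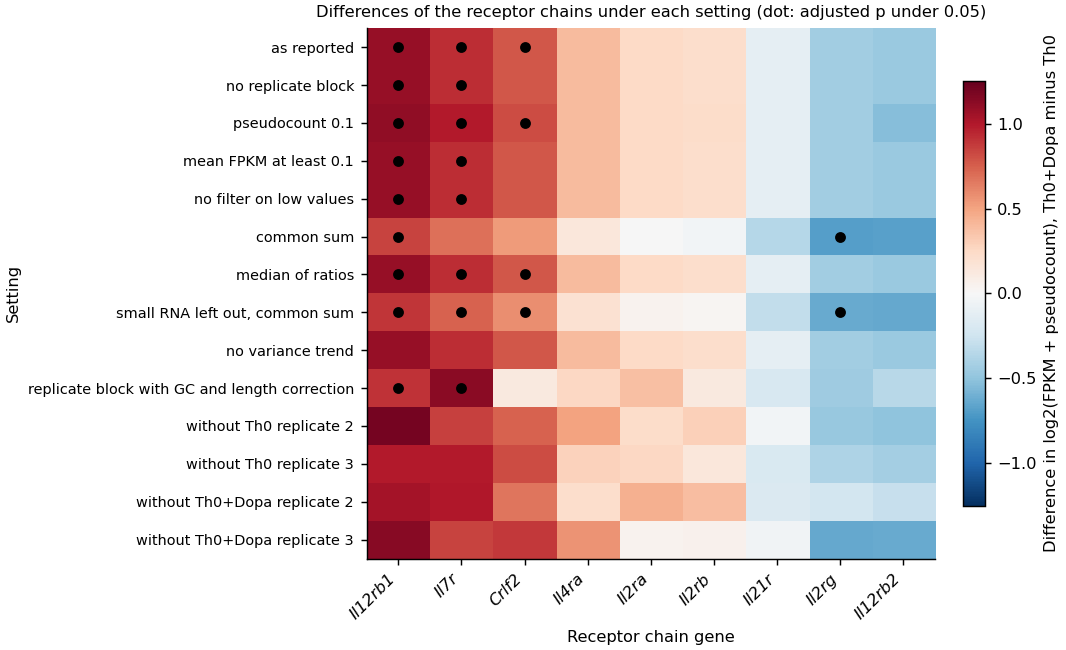
Difference of each tested receptor chain (colour, log2 of FPKM plus the pseudocount, Th0+Dopa minus Th0) under each setting of the analysis, with a dot where the limma adjusted p was under 0.05. Il12rb1 and Il7r were positive throughout, with ranges of 0.84 to 1.19 and 0.69 to 1.13, as were Crlf2 (0.13 to 0.88) and Il4ra (0.14 to 0.57). Il2rg, Il12rb2 and Il21r were negative throughout.

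Of the 50 other cytokine receptor chains listed for comparison, 26 were tested, of which 1 rose and 4 fell, with a median of -0.18 over the tested chains. The gene that rose was Il15ra, which encodes the alpha chain of the IL-15 receptor and lies beside Il2ra on chromosome 2. It had 5.77 and 7.60 FPKM in Th0 and 11.8 and 15.6 with dopamine (0.93 ± 0.16, limma adjusted p = 0.0254), and its ratio to Il2ra went from 0.0706 and 0.0882 to 0.137 and 0.135. The chains that fell were the CSF-1 receptor Csf1r (-1.93 ± 0.32, adjusted p = 0.0223), the IL-33 receptor Il1rl1 (-1.81 ± 0.33, adjusted p = 0.0288), the common beta chain Csf2rb (-1.47 ± 0.24, adjusted p = 0.0218) and the IL-6 family signalling chain Il6st (-0.59 ± 0.13, adjusted p = 0.0486). Without the block, Il15ra, Il1rl1 and Il6st missed the threshold in limma (adjusted p = 0.0781, 0.0714 and 0.114). Il15ra was also lost with a common sum (0.0678), Il1rl1 and Il6st after the GC and length correction (0.0578 and 0.0879), and all 3 with the filter at a mean of 0.1 FPKM (0.0534, 0.0561 and 0.0821). With no filter, Il1rl1, Il6st and Csf2rb were lost (0.0598, 0.0760 and 0.0564). Without limma's trend, Il15ra, Il1rl1, Csf2rb and Il6st were lost (limma adjusted p = 0.0736, 0.0784, 0.05525 and 0.132), and Csf1r kept its call (0.04245). Csf1r, Il1rl1 and Csf2rb are known from myeloid cells, mast cells and basophils. Summed over their lists, basophil and mast cell markers took 373 and 497 FPKM in Th0 and 47.3 and 43.6 with dopamine, with 7 of 7 tested members called lower (Mcpt8, Cpa3, Prss34 and Ms4a2 among them). Macrophage and dendritic cell markers took 426 and 570 against 56.6 and 57.3, with 9 of 10 called lower (Lyz2, Fcer1g, Clec7a and Mmp12 among them). The remaining gene, Adgre1, had -1.14 and was not called (limma adjusted p = 0.108). Neutrophil markers took 93.4 and 123 against 5.84 and 6.76, with 3 of 3 called lower. The part of these cells in the values of the receptor chains was not tested, and in bulk samples fewer cells of a type and less RNA per cell cannot be told apart.

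**Figure D5:**
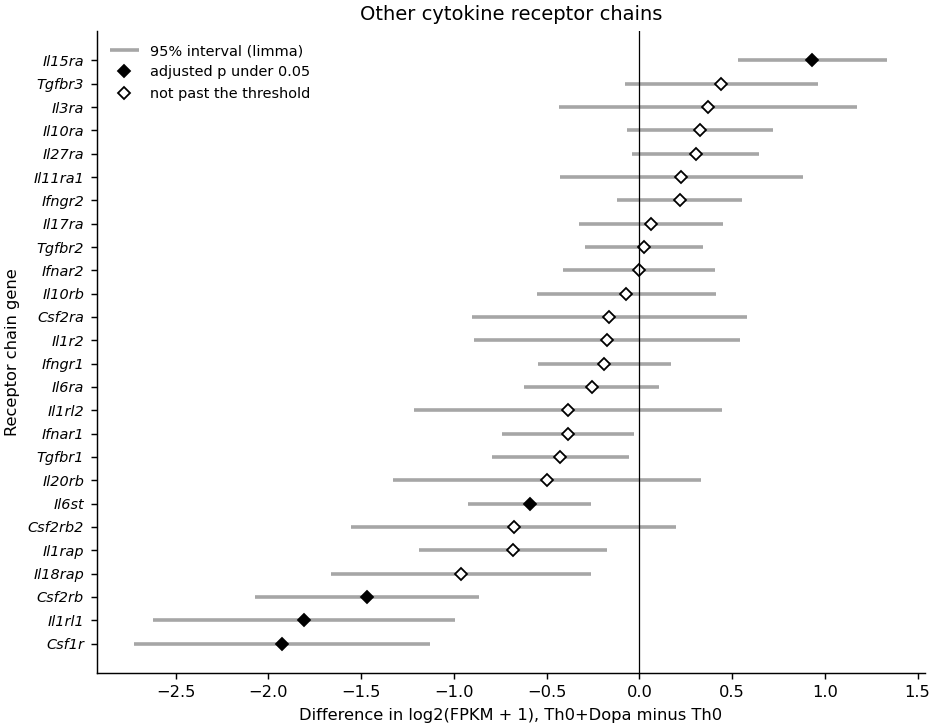
Difference in log2(FPKM + 1), Th0+Dopa minus Th0, of the 26 other cytokine receptor chains tested, with bars for the 95% interval from limma and filled diamonds where the adjusted p was under 0.05. Il15ra (0.93) is the only filled point above 0, and Csf1r, Il1rl1, Csf2rb and Il6st are those below it.

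Markers of T cells themselves took 2586 and 2546 summed FPKM in Th0 and 2722 and 2508 with dopamine, and the groups overlapped. Of 15 such genes 4 rose, among them Cd5 (0.96 ± 0.10), Cd6 (0.84 ± 0.11) and Cd3d (0.48 ± 0.10), and 1 fell, Trac (-0.70 ± 0.10, limma adjusted p = 0.0148). Without the block Cd6, Cd3d and Trac missed the threshold (adjusted p = 0.0563, 0.0988 and 0.0677), and Cd3d had 0.23 with a common sum (0.224). B cell markers summed to 2.65 to 5.43 FPKM and markers of CD8 T, NK and innate lymphoid cells, which also carry Il2rb, Il7r and Il12rb2, to 7.16 to 8.07, with the NK receptor Ncr1 listed at 0 in every library. Erythroid markers summed to at most 1.76 FPKM. Among regulatory T cell markers, which accompany high Il2ra, 1 of 4 tested fell (Ctla4, -1.58 ± 0.12, adjusted p = 0.00195). The differences of all 4 were below 0, with a median of -0.65. Summed over the list, these markers took 594 and 550 FPKM in Th0 and 450 and 346 with dopamine, so the groups were separate. Most of each sum was Tnfrsf18 (404 and 360 against 379 and 287, not called) and Ctla4 (184 and 181 against 66.8 and 54.5). The sum thus says little about the other markers, and Foxp3 was at 0.0459 to 0.701 FPKM. The part of such cells in the values of Il2ra was not tested.

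The cytokines that these receptors bind moved in both directions. Of 12 ligand genes 5 were tested, and 2 rose and 1 fell. Il2, the T cell growth factor that binds the chains of Il2ra, Il2rb and Il2rg, was at 189 and 191 FPKM in Th0 and at 94.6 and 105 with dopamine (-0.93 ± 0.10, limma adjusted p = 0.00712). Il4 and Il13, whose receptors include the Il4ra chain, rose by 1.45 ± 0.12 and 1.07 ± 0.10 (limma adjusted p = 0.00298 and 0.00447). Il13ra1, the other chain of the IL-13 receptor, was at 0 to 0.544 FPKM and was not tested. Without limma's trend, Il2, Il4 and Il13 missed the threshold (adjusted p = 0.0763, 0.0507 and 0.0616). Il21 had 0.30 ± 0.16 (adjusted p = 0.297) and is named here after its value was seen. Il7 was at 0 to 0.166 FPKM, and Tslp and Il12b were listed at 0 in all libraries, as were 4 receptor chains of the comparison list, Il13ra2, Il17rc, Il22ra1 and Il23r.

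Below the receptors, 0 of 20 Janus kinases, STATs and adaptors rose and 2 fell, with a median of -0.14. Stat3, which IL-6 and IL-21 receptors activate, fell by 1.15 on the log2 scale (SE 0.11, limma adjusted p = 0.00445), and the phosphatase Ptpn6 had -0.46 ± 0.10 (adjusted p = 0.0446). Both calls were lost without the block (limma adjusted p = 0.0683 for Stat3 and 0.0782 for Ptpn6), and that of Ptpn6 also with lower filters (0.0738 and 0.0673). Jak3, the kinase bound to the common gamma chain, had 0.48 ± 0.13 and did not pass (adjusted p = 0.0800). Of 15 tested genes that STATs induce or that act in survival, 4 rose and 1 fell, with a median of 0.04. The cytotoxic protease Gzmb rose by 1.90 ± 0.11, Tnfrsf8 by 1.69 ± 0.15 and the feedback inhibitor Socs1 by 1.26 ± 0.18 (adjusted p = 0.000952, 0.00348 and 0.0142), while the survival factor Bcl2 had -0.68 ± 0.15 (adjusted p = 0.0457). The call of Bcl2 was lost without the block (limma adjusted p = 0.0728), with lower filters (0.0810 and 0.0705) and after the GC and length correction (0.0563), and that of Socs1 after that correction (0.0522). Among 21 tested factors known to act on genes of the receptor chains or on T helper programs, 4 rose and 0 fell, with a median of 0.07. These were Maf (1.20 ± 0.22), Tbx21 (0.82 ± 0.12), Gfi1 (0.67 ± 0.11) and Irf4 (0.51 ± 0.11). Each of these calls was lost under some settings. Gfi1 and Irf4 missed the threshold without the block (limma adjusted p = 0.117 and 0.0748), and both missed it with a common sum (0.0887 and 0.207), as did Tbx21 (0.0572). After the GC and length correction Gfi1 had 0.39 (0.0948) and Maf 1.09 (0.0512), and with lower filters Maf (0.0590 and 0.0729) and Irf4 (0.0726 and 0.0675) were lost. Gfi1 is known in mouse T cells as a repressor of Il7r. Foxo1, an activator of Il7r in mouse T cells, had -0.48 ± 0.23 and did not pass (adjusted p = 0.242). Jak3 and Foxo1 are named after their values were seen.

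The gene profiles nearest to that of Il12rb1 over the 4 libraries, by Euclidean distance of centred log2(FPKM + 1) values among tested protein-coding genes, were those of Mapk12 (0.0768), Il13 (0.0803) and Hist1h2ah (0.0874). Mapk12 itself did not pass the test (limma adjusted p = 0.104), and Hist1h2ah is one of many near-identical histone copies, so its value is uncertain. With 4 libraries, such nearness says little more than that the differences were of like size.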

How the data were processed

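The deposited values are FPKM. Per the labels' protocols, RNA was purified on columns, treated with DNase and depleted of ribosomal RNA and globin mRNA before stranded libraries were made. Per the submitters' processing notes, bcl2fastq 1.8.4, Trimmomatic 0.35, FastQC 0.10.1, STAR 2.4.2 and Cufflinks 2.2.1 were used with mm10. The sources used here do not name the annotation release, the normalization or the strand setting, and overlapping or antisense genes are therefore uncertain. FPKM summed to 687066 to 880583 per library. Median-of-ratios size factors were 0.989 for Th0 2 and 0.991 for Th0+Dopa 2, and 1.017 for Th0 3 and 1.015 for Th0+Dopa 3. By this measure the libraries of a table were already near a common scale, although their sums of FPKM differed.

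Gene names, coordinates, GC content and transcript length came from GENCODE M21 (GRCm38), which named 36423 of the 38282 IDs. Genes whose FPKM averaged 1 or more were tested with limma 3.58.1 in R 4.3.3 (lmFit, eBayes with trend, two-sided, Benjamini-Hochberg adjustment over 11423 genes) on log2(FPKM + 1). The table, equal to the replicate number, was the block, because the labels tie each number to its own table. Over tested genes, deviations of same-numbered libraries from their group means correlated at 0.0869. Each gene had 1 residual degree of freedom, to which the prior added 4.70. Depth was estimated from low values of single-transcript genes, of which 87.1% to 88.4% lay within 0.15 fragment of a whole number. Such estimates cover counting only.

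The receptor chains and gene lists were chosen with earlier results of these data known. Named genes were the 10 chains, every called gene of the other receptor chains, the 4 largest calls of each further list, neighbours of the chains and the nearest profiles.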

Additional observations from a re-analysis of the deposited data

How the results depend on the processing

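In all, 1218 genes were called, 717 higher and 501 lower (58.9% higher). Without the replicate block there were 496 calls (2 of the receptor chains, against 3), with a filter at a mean of 0.1 FPKM 669, with no filter 740, without limma's trend 256 (0 chains, and 20 of the other named genes lost their call), and with small RNA genes left out before a common sum 1907. With a library left out, 0 to 4 genes and 0 chains were called. The share of higher calls was 26.1% with a common sum, 25.9% with small RNA left out first, 41.4% without the trend and 50.3% after the GC and length correction in the fit with the block. Signs opposite to the reported ones appeared for Il2ra (-0.0078) and Il2rb (-0.0298) with a common sum and for Hist1h2ah (-0.0497) after the GC and length correction. Il12rb1 passed in 8 of 13 alternatives, Il7r in 7 and Crlf2 in 3. The alternative with median-of-ratios scaling nearly repeats the reported fit (1212 calls against 1218), because its factors were almost equal within each table. Its passes for these chains therefore add little. The fits without 1 of the libraries were unblocked, applied median-of-ratios scaling and assumed that a lone library varies like the others. The cause of the lost calls was not tested, beyond there being fewer libraries or more genes tested. Counting limits Il18r1 most.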

Other observations

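Several receptor genes lie side by side with the chains described. The gene Il18r1 sits in a cluster on chromosome 1 with Il1r2, Il1r1, Il1rl2, Il1rl1 and Il18rap. Il18rap, the accessory chain of the IL-18 receptor, had 2.47 and 3.96 FPKM in Th0 and 0.957 and 1.31 with dopamine (-0.96 ± 0.28, limma adjusted p = 0.0918), and it was called lower only with small RNA genes left out and a common sum (adjusted p = 0.0336), among the settings tried. Il1r2, the decoy receptor for IL-1, had -0.18 ± 0.29 (adjusted p = 0.739) and Il1rl2 had -0.38 ± 0.33 (adjusted p = 0.505), while Il1r1 was at 0 to 0.443 FPKM and was not tested. On chromosome 15, Csf2rb lies near Il2rb. Csf2rb was at 6.33 and 6.85 FPKM in Th0 and at 1.29 and 2.27 with dopamine, and its near copy Csf2rb2, which shares sequence with it and is therefore uncertain, at 1.43 and 1.61 against 0.267 and 0.961 (adjusted p = 0.273).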
